A study of Mus musculus with 18 samples.

Results

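The 9 genes Lct, Sis, Treh, Anpep, Enpep, Dpp4, Alpi, Car4 and Vil1, of 37620 mouse gene IDs counted, were chosen by symbol as a set of brush border genes of the enterocyte, the absorptive cell of the gut. They were followed in 18 RNA-seq libraries of polyadenylated RNA from 9 groups, each a genotype (K9M, K36M or WT) in a tissue (intestine, testes or bone marrow), and each group held 2 mice with a library each. The K9M and K36M groups are mice labelled for an inducible histone H3 in which the lysine named is replaced by methionine, a change known to inhibit methylation of the same lysine. The WT groups are labelled wildtype, and the labels do not say whether these mice carried an unmutated H3 transgene. All groups were C57B6/129 hybrid mice of 6 to 8 weeks, and under 1 shared protocol all were given doxycycline at 2 mg/ml in their water. The tissues were dissociated intestinal cells, dissociated testes cells, and bone marrow cells that were Lin- and cKit+, the compartment in which immature blood cells are found. Each mouse is called here by its genotype and label number. The gut and testes libraries were both made from K9M.1516, K9M.1519, K36M.1485, K36M.1553, WT.1476 and WT.1477, while the marrow libraries were made from 6 other mice. The stretch of intestine taken, the days of doxycycline and the promoter driving the transgene are not given in the sources used here. Gene counts per library ranged from 13396303 to 21417915.

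The brush border is the carpet of microvilli on the apical face of the enterocyte, and its enzymes finish digestion at the cell surface. Disaccharidases split lactose, sucrose and trehalose, peptidases trim short peptides, and the sugars and amino acids released are taken up by transporters in the same membrane. The enzymes are made as enterocytes leave the crypt and mature along the villus, and many also vary along the length of the gut. Transcription factors of the HNF1, HNF4, CDX and GATA families are known to act on their promoters. Vil1 is the exception in the set, since villin is an actin-bundling protein of the microvillus core and not an enzyme.

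The bases just before the annotated starts are shown for Lct and Car4, the pair with the largest falls in K36M intestine, for Sis, which fell less, and for Alpi, which was not called. The sequences are RefSeq's, on GRCm38.p6, 250 bases each, printed 5′ to 3′ on the gene's strand. Lct lies at chr1:128328319-128328568 on the minus strand, Sis at chr3:72967864-72968113 on the minus strand, Alpi at chr1:87101607-87101856 on the minus strand and Car4 at chr11:84957504-84957753 on the plus strand. Capitals mark matches, on either strand, to GTTAAT for HNF1, TTTATG for CDX factors, AGATAA for GATA factors, CAAAGT for HNF4 or TATAAA for the TATA box.
Lct: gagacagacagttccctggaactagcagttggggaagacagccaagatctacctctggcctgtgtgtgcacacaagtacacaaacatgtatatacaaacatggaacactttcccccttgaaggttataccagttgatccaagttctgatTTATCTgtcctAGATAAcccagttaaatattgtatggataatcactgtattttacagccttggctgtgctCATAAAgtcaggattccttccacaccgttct
Sis: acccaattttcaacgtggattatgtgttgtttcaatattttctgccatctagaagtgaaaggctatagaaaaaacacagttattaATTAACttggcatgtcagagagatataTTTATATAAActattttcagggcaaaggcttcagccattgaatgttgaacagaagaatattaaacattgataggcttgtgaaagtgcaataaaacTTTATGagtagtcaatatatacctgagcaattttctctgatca
Alpi: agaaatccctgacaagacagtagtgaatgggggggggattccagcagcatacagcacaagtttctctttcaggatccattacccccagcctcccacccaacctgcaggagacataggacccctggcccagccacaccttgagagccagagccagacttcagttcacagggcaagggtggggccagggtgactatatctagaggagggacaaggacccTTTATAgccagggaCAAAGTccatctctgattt
Car4: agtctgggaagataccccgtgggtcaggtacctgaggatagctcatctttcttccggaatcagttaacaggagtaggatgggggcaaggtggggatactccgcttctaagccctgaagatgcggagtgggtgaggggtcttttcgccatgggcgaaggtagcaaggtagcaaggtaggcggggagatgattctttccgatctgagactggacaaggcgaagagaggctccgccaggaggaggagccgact
The Lct window held GATA matches that begin 101 and 90 bases before the start and a CDX match 31 bases before it. The Sis window held an HNF1 match at 165, a pair of TATA matches at 138 and 134 that overlap each other, and a CDX match at 43. The Alpi window held a TATA match at 33 and an HNF4 match at 19, and the Car4 window held none of these letters. Over the 9 promoters, 1 held the HNF1 letters, 2 the CDX letters, 2 the GATA letters, 2 the HNF4 letters and 4 the TATA letters. Among 32851 mouse promoters of the same length, the shares with a match were 6.43%, 10.8%, 9.99%, 12.6% and 12.4% in the same order. A match describes the letters only.

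In WT intestine all 9 genes were expressed, and 8 of them stood among the 115 highest of 14246 genes tested by mean CPM, a read count divided by its library's total, scaled with TMM factors within a tissue. Per kilobase of exon, the order of mean levels in WT was Alpi at 1816 ± 1018 CPM per kb, Anpep at 1480 ± 266, Vil1 at 910 ± 1.02, Sis at 751 ± 46.5, Treh at 576 ± 121, Lct at 523 ± 24.9, Enpep at 257 ± 37.2, Dpp4 at 165 ± 10.9 and Car4 at 69.4 ± 20.4 (SD, n = 2 mice each). The ranges of the 2 mice overlapped between Alpi and Anpep and between Treh and Lct, and the other neighbours in that order were apart. The 9 genes together made up 2.51% and 2.43% of gene counts in the K9M mice, 1.51% and 1.40% in the K36M mice, and 2.70% and 2.56% in the WT mice. The K36M mice lay below both other groups, while K9M lay slightly below WT in these shares and overlapped with it in summed CPM.

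**Figure D1:**
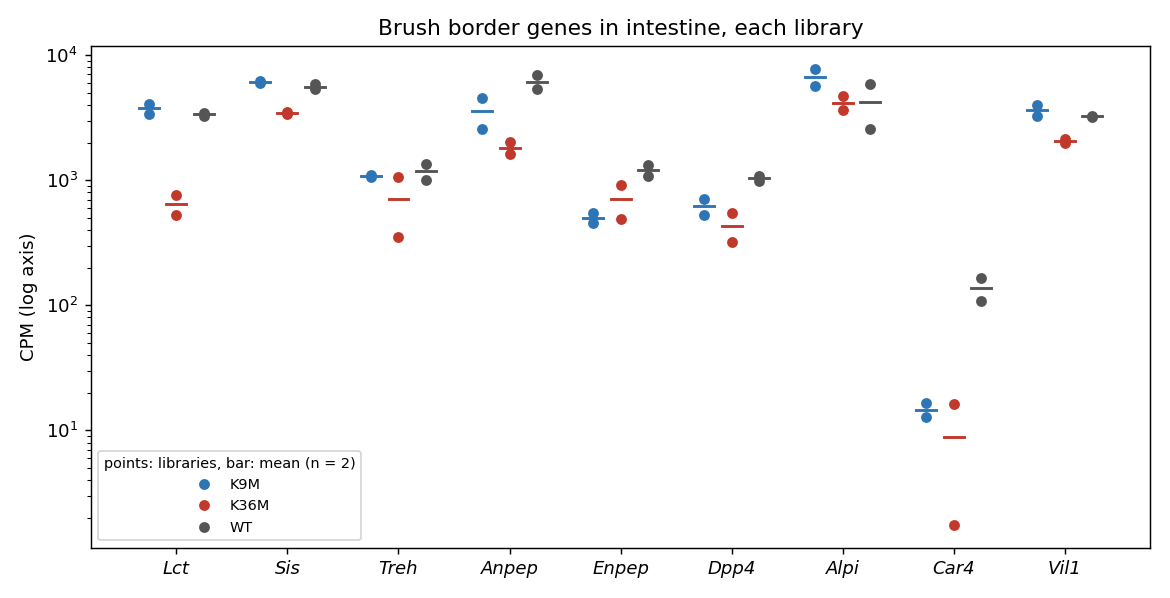
CPM on a log axis of the 9 brush border genes in intestine, with 1 point per library and a bar at the mean of the 2 mice of K9M, K36M and WT. Lct is low only in K36M, at 758 and 526 CPM, while Car4 is low in both mutants.

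In K36M intestine 5 of the 9 genes fell against WT (Lct, Sis, Anpep, Dpp4 and Car4), none rose, and the difference of Alpi was near 0 with a wide error. A gene is said to rise or fall where the adjusted p is under 0.05, from the quasi-likelihood test of edgeR, with p-values adjusted by Benjamini-Hochberg over all genes tested in the tissue. Of 14246 genes, 11.7% were called lower and 23.3% were called either way in this comparison. The median log2 fold change of the 9 was -0.79, against -0.02 over all genes tested. Both K36M libraries lay below both WT libraries for 7 of the 9 genes, against 32.3% of all genes. With 2 mice per group, the p-values measure the spread between these mice, and in bulk RNA fewer cells of a type and less RNA per cell cannot be told apart.

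Lactase (Lct), which splits milk sugar, had 758 and 526 CPM in the K36M mice, against 3241 and 3466 CPM in the WT mice. Every K36M value was far below every WT value. The log2 fold change was -2.39 ± 0.26 (SE, adjusted p = 0.00307), a level 5.22-fold lower. Lct was the sole member called under every alternative run, with log2 fold changes of -2.67 to -2.15, and its rank by mean level was 191 in K36M against 21 in WT. Sucrase-isomaltase (Sis), which splits sucrose and the branches of starch, had 3510 and 3407 CPM in the K36M mice, against 5850 and 5359 CPM in the WT mice. The groups did not overlap, and the fall of Sis was shallow, at -0.70 ± 0.19 (adjusted p = 0.0453). That call lay close to the threshold and was lost in each of the 6 fits that left out 1 library (adjusted p = 0.0945 to 0.165), with the 2 genotypes alone, without robust estimation, with DESeq2 size factors and when scaled to pan-epithelial genes. Trehalase (Treh), which splits the sugar of fungi and insects, had 1061 and 351 CPM in the K36M mice, against 1003 and 1355 CPM in the WT mice. Its K36M mice stood on either side of the lower WT mouse, and the difference of -0.74 ± 0.48 was not called (adjusted p = 0.305). Without K36M.1485, Treh was called at -1.75 (adjusted p = 0.00853).

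Among the peptidases, aminopeptidase N (Anpep), which removes single amino acids from the ends of peptides, had 1616 and 2030 CPM in the K36M mice, against 6900 and 5343 CPM in the WT mice. The groups were well apart, with a log2 fold change of -1.75 ± 0.33 (adjusted p = 0.0149). Dipeptidyl peptidase 4 (Dpp4), which also cuts the incretin hormones, had 544 and 322 CPM in the K36M mice, against 1090 and 992 CPM in the WT mice. Both K36M values were clearly below WT, and Dpp4 fell by 1.26 ± 0.29 on the log2 scale (adjusted p = 0.0264). Aminopeptidase A (Enpep), which removes acidic residues and is known for cutting angiotensin, had 911 and 492 CPM in the K36M mice, against 1333 and 1085 CPM in the WT mice. The groups did not overlap, yet the K36M mice differed widely and the change of -0.79 ± 0.31 was not called (adjusted p = 0.116). Enpep was called without K36M.1485, at -1.29 (adjusted p = 0.0172).

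Carbonic anhydrase 4 (Car4), a lipid-anchored enzyme that interconverts carbon dioxide and bicarbonate at the cell surface, had 16.1 and 1.76 CPM in the K36M mice, against 165 and 108 CPM in the WT mice. Both K36M values lay far below WT, and as a ratio the K36M mice stood further apart from each other than the WT mice did. The log2 fold change was -3.95 ± 0.86 (adjusted p = 0.0229), a level 15.5-fold lower. That size rests on single mice, with -6.27 without K36M.1485 and -3.10 without K36M.1553. Intestinal alkaline phosphatase (Alpi), which removes phosphate from lipids and from bacterial lipopolysaccharide, had 4681 and 3645 CPM in the K36M mice, against 2561 and 5928 CPM in the WT mice. Both K36M mice lay between the WT mice, and the change of -0.03 ± 0.41 was not called (adjusted p = 0.969), with its sign turned under 5 alternatives given with the limits. Villin (Vil1) had 1991 and 2155 CPM in the K36M mice, against 3235 and 3230 CPM in the WT mice. The groups did not overlap, and the change of -0.64 ± 0.20 narrowly missed the threshold (adjusted p = 0.0598), whereas DESeq2 (adjusted p = 0.00351) and limma-voom (adjusted p = 0.0457) called it.

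The calls other than Lct depended on both WT mice, since leaving out either WT library left Lct as the only one of the 9 called. Calls over all genes fell in the same fits, to 1008 of 15014 genes without WT.1476 and 881 of 15639 without WT.1477, against 3323 of 14246 with all libraries. Without WT.1476 the adjusted p was 0.0701 for Anpep, 0.101 for Dpp4 and 0.083 for Car4, and without WT.1477 it was 0.0501, 0.086 and 0.0656, while all log2 fold changes kept their sign. Without K9M.1519, which enters through the shared spread, 3 members were called, Car4 having an adjusted p of 0.0508. WT.1476 also stood apart from WT.1477 in the lists below.

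**Figure D2:**
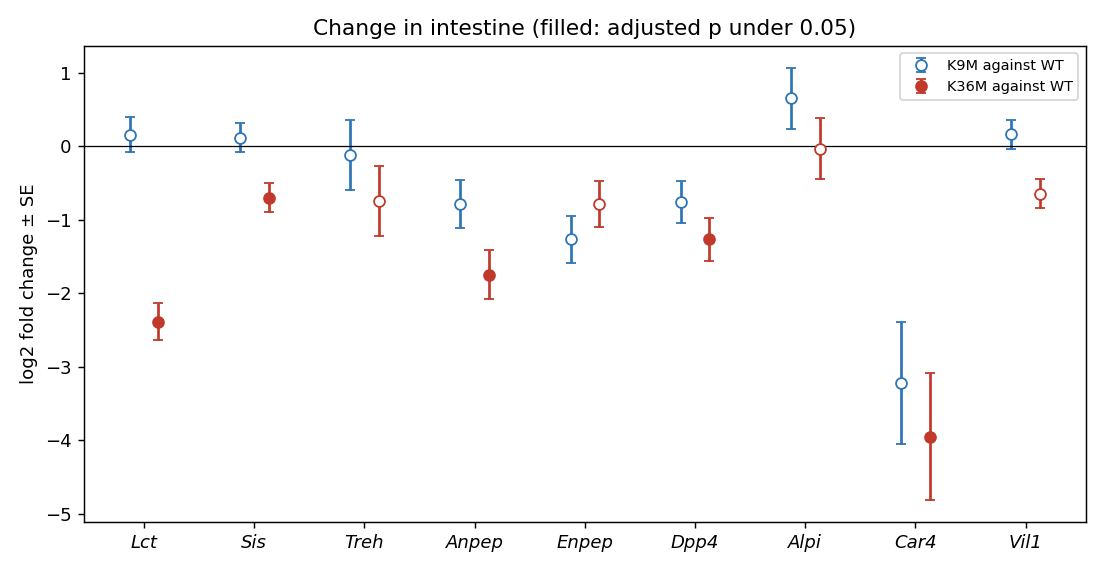
Log2 fold change with SE of the 9 genes in intestine, K9M against WT and K36M against WT, filled where the adjusted p was under 0.05. Filled points are seen only for K36M, from -0.70 for Sis to -3.95 for Car4.

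In K9M intestine none of the 9 genes was called against WT by edgeR, where 0.211% of all genes were called. At an unadjusted p under 0.05 there were 4 of 9 (Enpep, Car4, Dpp4 and Anpep, each lower), where 1469 of 14246 genes passed the same threshold. DESeq2 called Enpep alone among 372 genes in all, and limma-voom called none of the 9 among 26. Both K9M libraries lay below both WT libraries for these 4 genes and above them for Sis and Vil1, against 23.7% of all genes in each direction. The K9M and K36M comparisons share the same WT libraries, so their values stand side by side here without a measure of likeness.

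Car4 had 16.5 and 12.7 CPM in the K9M mice, against 165 and 108 CPM in the WT mice. Each K9M value was far below WT, with a log2 fold change of -3.22 ± 0.82 (adjusted p = 0.253 by edgeR, and 0.00677 before adjustment). Car4 passed with the 2 genotypes alone (adjusted p = 0.0113) and without either K36M library (adjusted p = 0.0111 and 0.0113). Enpep had 551 and 455 CPM in the K9M mice, against 1333 and 1085 CPM in the WT mice. The groups were well apart, with a change of -1.27 ± 0.32 (adjusted p = 0.245 by edgeR, and 0.00581 before adjustment), and DESeq2 gave an adjusted p of 0.00801. Dpp4 had 709 and 526 CPM in the K9M mice, against 1090 and 992 CPM in the WT mice. Anpep had 4540 and 2564 CPM in the K9M mice, against 6900 and 5343 CPM in the WT mice. Both peptidases were lower without overlap, at -0.75 ± 0.29 for Dpp4 (adjusted p = 0.445) and -0.79 ± 0.32 for Anpep (adjusted p = 0.478).

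None of the disaccharidases, nor Vil1 or Alpi, was called in K9M intestine. Lct had 4101 and 3405 CPM in the K9M mice, against 3241 and 3466 CPM in the WT mice, and Sis had 6192 and 5990 CPM in the K9M mice, against 5850 and 5359 CPM in the WT mice. The Lct values overlapped, and the log2 fold changes were 0.16 ± 0.24 for Lct and 0.12 ± 0.19 for Sis. Treh had 1111 and 1070 CPM in the K9M mice, inside the WT range, with a change of -0.11 ± 0.48. Vil1 had 3956 and 3289 CPM in the K9M mice, against 3235 and 3230 CPM in the WT mice, a change of 0.16 ± 0.20. Alpi had 5619 and 7781 CPM in the K9M mice, against 2561 and 5928 CPM in the WT mice, which overlapped at 0.66 ± 0.42.

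Set against each other, the mutants differed in 3 of the 9 genes, all higher in K9M (Lct, Sis and Vil1), where 12.9% of all genes were called higher and 25.1% either way. Both K9M libraries lay above both K36M libraries for 6 of the 9 genes, against 33.7% of all genes. Lct had 4101 and 3405 CPM in the K9M mice, against 758 and 526 CPM in the K36M mice, a log2 difference of 2.55 ± 0.26 (adjusted p = 0.003). Lct was called under every alternative run. The differences were 0.82 ± 0.19 for Sis (adjusted p = 0.0269) and 0.81 ± 0.20 for Vil1 (adjusted p = 0.0296). Both calls were lost without either K9M library, where the adjusted p was 0.154 and 0.126 for Sis and 0.193 and 0.0954 for Vil1, and when scaled to pan-epithelial genes (0.0611 and 0.0505). Vil1 was also lost without either WT library (adjusted p = 0.054 and 0.0545) or without K36M.1485 (0.0783), and Sis without either K36M library (0.06 and 0.0602). Anpep was 0.96 ± 0.32 higher in K9M on the log2 scale and was not called (adjusted p = 0.0726), and DESeq2 called it (adjusted p = 0.0132). For Car4 the difference was 0.73 ± 0.81 (adjusted p = 0.536), with overlapping mice, and for Enpep it was -0.48 ± 0.31 (adjusted p = 0.294). Car4 was 3.05 higher in K9M (adjusted p = 0.00753) without K36M.1485.

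Read ratios within a library, which no scaling factor can move, set the members against each other. The reads of Lct per read of Sis were 0.662 and 0.568 in the K9M mice, 0.216 and 0.154 in the K36M mice, and 0.554 and 0.647 in the WT mice. Lct was thus scarcer relative to Sis in K36M than in either other group, with no overlap. The reads of Vil1 per read of Sis were 0.639 and 0.549 in the K9M mice, 0.567 and 0.633 in the K36M mice, and 0.553 and 0.603 in the WT mice, which all overlapped. The reads of Anpep per read of Sis were 0.733 and 0.428 in the K9M mice, 0.460 and 0.596 in the K36M mice, and 1.18 and 0.997 in the WT mice, where both mutants lay below WT. The reads of Enpep per read of Sis were 0.0889 and 0.0759 in the K9M mice, 0.260 and 0.144 in the K36M mice, and 0.228 and 0.202 in the WT mice, with K9M the lowest. Ratios within a library show unequal change only, and no test was made of them.

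**Figure D3:**
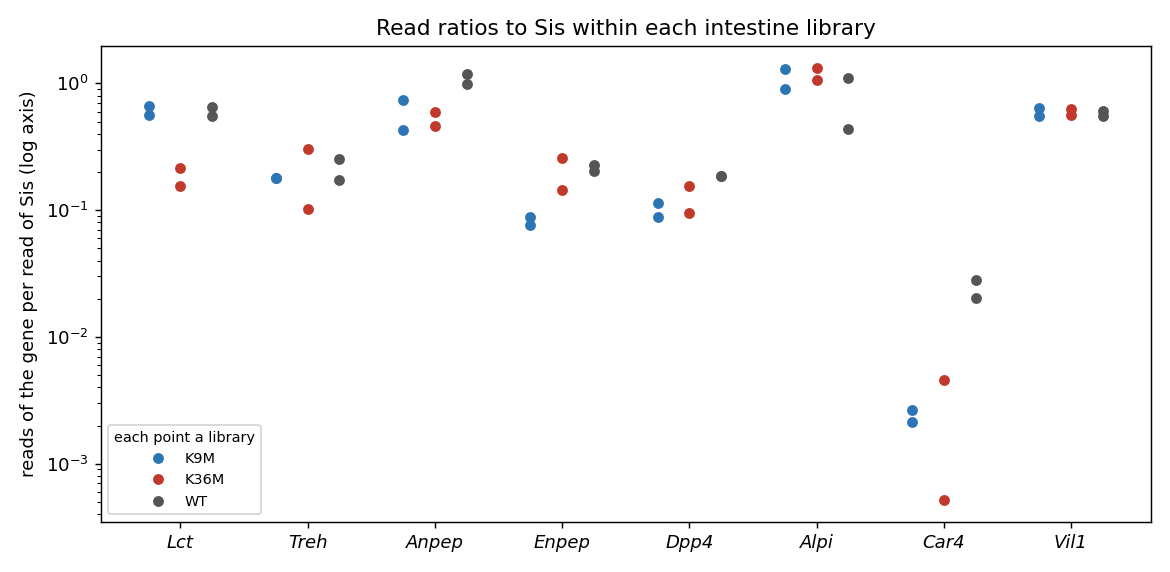
Reads of each gene per read of Sis in each intestine library of K9M, K36M and WT, on a log axis, with 1 point per library. Lct sits at 0.216 and 0.154 in K36M against 0.554 and 0.647 in WT, while Vil1 stays between 0.549 and 0.639 in all 6 libraries.

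Further brush border genes were read from lists that hold none of the 9. Of 18 other brush border hydrolases, 16 were tested in K36M intestine, 8 fell and 0 rose, with a median log2 fold change of -1.55. The count of falls was 2 without WT.1477, 4 without WT.1476 or either K9M library and 5 without K36M.1553. Amine oxidase Aoc1, which breaks down histamine, had 101 and 30.6 CPM in the K36M mice, against 1230 and 1033 CPM in the WT mice, at -4.11 ± 0.59 (adjusted p = 0.00722). Neutral ceramidase Asah2, which digests sphingolipid, had 142 and 38.8 CPM in the K36M mice, against 1237 and 1224 CPM in the WT mice, at -3.77 ± 0.60 (adjusted p = 0.00917). Both enzymes were far below WT in each K36M mouse and were called in every fit that left out a library. The peptidases Mme at -2.16 ± 0.42 (adjusted p = 0.0167) and Mep1b at -1.54 ± 0.37 (adjusted p = 0.0309) fell too, and lost their calls without WT.1476 (0.0594 and 0.0946) or WT.1477 (0.0703 and 0.106). In K9M, 0 of these 16 were called by edgeR, with 2 at an unadjusted p under 0.05, 2 by DESeq2 and 0 by limma-voom, and their median was -0.01.

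Structural genes of the microvillus formed the next list. Of 16 tested, 2 fell and 0 rose in K36M, with a median of -0.02, and the 2 were the actin bundler Pls1 (-1.15 ± 0.22, adjusted p = 0.0151) and the scaffold Pdzk1 (-1.10 ± 0.23, adjusted p = 0.0198). Both lost their calls without WT.1476 (0.0577 and 0.0931) or WT.1477 (0.0805 and 0.0661), which left 0 called. Of 14 apical nutrient transporters, 6 fell and 1 rose, with a median of -0.76, and the count of falls was 2 without WT.1476, 3 without WT.1477 or either K9M library and 4 without K36M.1553. Slc3a1, the heavy chain of the cystine transporter, had 86.2 and 92.4 CPM in the K36M mice, against 217 and 255 CPM in the WT mice (-1.40 ± 0.16, adjusted p = 0.0034). The iron transporter Slc11a2 was the one that rose, with 1121 and 509 CPM in the K36M mice, against 105 and 189 CPM in the WT mice (2.47 ± 0.44, adjusted p = 0.0129), a call lost without WT.1476 (2.09, adjusted p = 0.0678). In K9M, edgeR called 0 of the 16 structural genes, with 2 at an unadjusted p under 0.05 and 0 by DESeq2 and limma-voom. For the 14 transporters it called 0, with 5 at an unadjusted p under 0.05, 2 by DESeq2 and 0 by limma-voom.

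Of 17 transcription factors of the enterocyte, 5 fell and 3 rose in K36M, and 3 fell without K36M.1485, WT.1477 or either K9M library. Hnf4g, a nuclear receptor of the HNF4 family, had 272 and 323 CPM in the K36M mice, against 936 and 1065 CPM in the WT mice (-1.75 ± 0.19, adjusted p = 0.00318). Maf, a leucine zipper factor, had 127 and 71.5 CPM in the K36M mice, against 542 and 564 CPM in the WT mice (-2.48 ± 0.29, adjusted p = 0.00372). Ppara, the fatty acid receptor, had 153 and 110 CPM in the K36M mice, against 31.1 and 31.5 CPM in the WT mice (2.07 ± 0.23, adjusted p = 0.00323). These 3 were called in every fit that left out a library, Hnf4g and Maf being below WT and Ppara above it in each K36M mouse. Klf5 (-1.21 ± 0.15), Vdr (-1.16 ± 0.26) and Cdx2 (-0.91 ± 0.21) also fell, and Creb3l3 (0.74 ± 0.19) rose. Over the 17 the median log2 fold change was -0.02, with 8 above 0 and 9 below. The related Hnf4a had 539 and 575 CPM in the K36M mice, against 668 and 689 CPM in the WT mice, and was not called. In K9M, edgeR called 0 of the 17, with 3 at an unadjusted p under 0.05, 1 by DESeq2 and 0 by limma-voom.

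**Figure D4:**
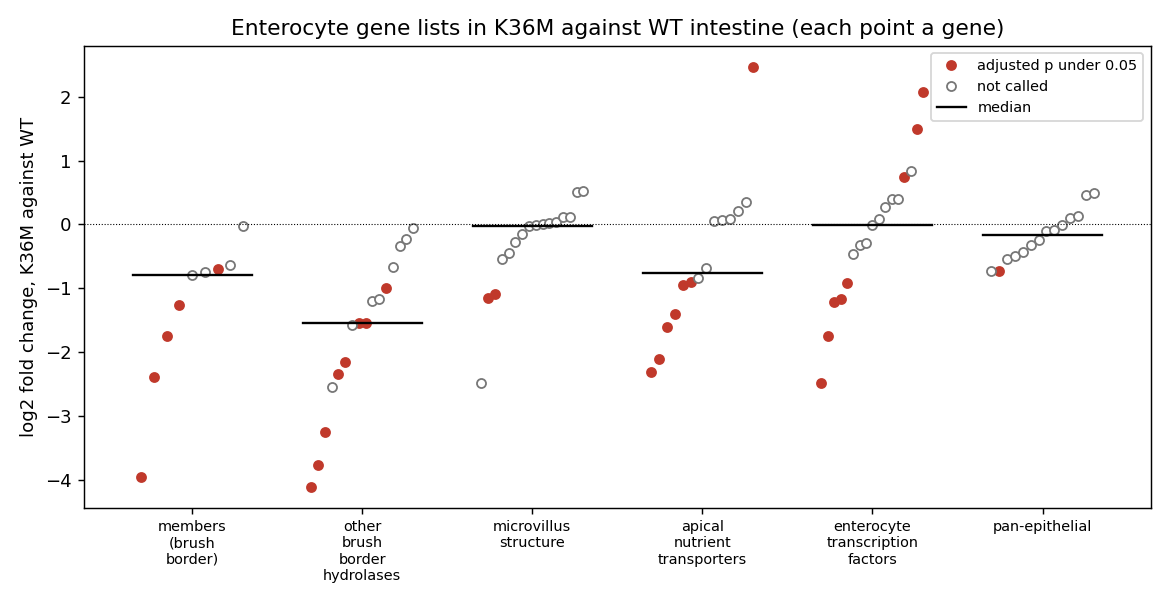
Log2 fold change in K36M against WT intestine for the 9 brush border genes and 5 lists, with 1 point per gene tested, filled where the adjusted p was under 0.05, and a line at the median. The hydrolases (median -1.55), the 9 brush border genes (-0.79) and the apical nutrient transporters (-0.76) lie below the pan-epithelial genes (-0.17). The microvillus genes and the transcription factors (-0.02 each) lie above them.

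Genes listed as pan-epithelial were summed as a rough measure of the epithelial RNA in each library. The 14 pan-epithelial genes, such as Epcam and Cdh1, summed to 15509 and 13851 CPM in the K9M mice, 12270 and 12684 CPM in the K36M mice, and 13855 and 15403 CPM in the WT mice. In K36M 1 of them was called, Cdh17 at -0.73 ± 0.19 (adjusted p = 0.0402), and the median was -0.17. Of the 14, 10 were below 0 and 4 above. Whether these genes change apart from the amount of epithelium was not tested, and the scaling to them carries the same limit. The Cdh17 call was lost in 5 of the 6 fits that left out 1 library (adjusted p = 0.086 to 0.181). When scaled to these genes, Lct was called and Sis was not in K36M intestine, as given above.

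Markers of other cells changed unevenly in K36M, where 11.7% of all genes were called higher, 11.7% lower and 23.3% either way. Only the goblet and lymphocyte lists had every gene tested called. All 9 goblet cell genes tested fell in K36M (5 of them without either WT library), with sums of 5013 and 5576 CPM in the K9M mice, 1003 and 1404 CPM in the K36M mice, and 10705 and 12791 CPM in the WT mice. All 11 T and intraepithelial lymphocyte genes tested fell in K36M, with sums of 72.3 and 50.5 CPM in the K36M mice, against 431 and 457 CPM in the WT mice, and none was at 0. Crypt stem genes had 2 of 10 higher (0 without either WT library or K36M.1553, 1 without either K9M library), with sums of 166 and 283 CPM in the K36M mice, against 275 and 162 CPM in the WT mice. Proliferation genes had 2 of 12 higher (1 without WT.1477 or K36M.1485), with sums of 499.6 and 515 CPM in the K36M mice, against 312 and 143 CPM in the WT mice. The median log2 fold change of the proliferation genes was -0.15, with 8 of the 12 below 0 and 4 above. Rrm2 alone had a mean of 266 CPM in K36M against 7.69 CPM in WT, so the higher sums rest largely on it. Stress and dissociation genes had 2 of 7 lower, with sums of 279 and 583 CPM in the K36M mice, against 499.2 and 625 CPM in the WT mice. Of 13 enteroendocrine genes, 5 fell and 2 rose in K36M (1 to 3 fell when 1 library was left out), with sums of 474 and 415 CPM in the K36M mice, against 320 and 350 CPM in the WT mice. Of 7 fibroblast genes tested, 2 rose (Pdgfra at 4.91 ± 0.96 and Col6a1 at 4.52 ± 0.96; 0 without WT.1477 and 1 without WT.1476), with sums of 59.6 and 13.1 CPM in the K36M mice, against 9.51 and 3.80 CPM in the WT mice. Of 8 myeloid genes tested, 2 rose and 1 fell (0 either way without WT.1477, and 1 higher and 0 lower without WT.1476 or either K9M library), with sums of 36.9 and 18.4 CPM in the K36M mice, against 18.2 and 17.1 CPM in the WT mice. Of 7 Paneth cell genes 1 rose and 1 fell (0 either way without WT.1477), and of 9 tuft cell genes 1 rose and 1 fell (6 lower without K36M.1485). Of 6 smooth muscle and 5 endothelial genes edgeR called 0, with 1 and 2 at an unadjusted p under 0.05, 1 each by DESeq2 and 0 by limma-voom. The part of all these markers in the results on the brush border genes was not tested.

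Markers of the gut's regions bear on members that vary along its length. Of 9 proximal genes, edgeR called 0 in K36M, with 4 at an unadjusted p under 0.05 (5492 of 14246 over all genes), 3 by DESeq2 and 0 by limma-voom, and in K9M all of these counts were 0. Of 7 ileum genes tested, 3 fell in K36M (Clec2h, Mep1b and Slc51a; 1 without either WT library and 2 without either K9M library or K36M.1553), while the defining ileum markers Fgf15, at 0 in all 6 libraries, and Fabp6, at most 0.243 CPM, were at or near 0 everywhere. Of 4 colon genes tested, edgeR called 0 in either mutant, with 2 at an unadjusted p under 0.05, 2 by DESeq2 and 0 by limma-voom in each, and the defining colon marker Car1 reached at most 0.373 CPM. Within WT, WT.1476 was lower than WT.1477 in Alpi (2561 against 5928 CPM), in its close relative Akp3 (544 against 4695 CPM) and in the proximal marker Slc40a1 (46.2 against 432 CPM). WT.1476 also carried 227 CPM of 12 testis germ cell genes, against 5.76 to 34.5 CPM in the other intestine libraries. Mep1b is in the list of other hydrolases too, so its fall is counted in both lists. The part of region in the results was not tested.

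Outside the gut the levels of most of the 9 genes were low beside those in it. In testes they summed to 12.7 and 12.1 CPM in the K9M mice, 11.7 and 10.4 CPM in the K36M mice, and 12.2 and 11.4 CPM in the WT mice. As a share of the level in the intestine of the same mouse, Sis in testes was 0.00513% to 0.0181%, Lct 0.0731% to 0.199% and Car4 0.765% to 80.6%. The Car4 share was 0.765% and 1.43% in the WT mice, 10.5% and 12.8% in K9M, and 20.4% and 80.6% in K36M. Its level in intestine was low in both mutants. The shares of the members thus differed widely. Sis, Treh and Enpep did not pass the filter on low counts in testes, at 0.240 to 0.616, 0.0452 to 0.240 and 0.144 to 0.740 CPM over the 6 libraries.

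Of the 6 genes tested in testes, Lct alone fell in K36M, where 23.8% of all genes were called lower and 49.5% either way. It had 0.899 and 1.05 CPM in the K36M testes, against 3.12 and 2.53 CPM in the WT testes, from 15 to 54 reads. Both K36M values were well below WT (-1.53 ± 0.27, adjusted p = 0.00645), a call lost without WT.1476 (-1.38, adjusted p = 0.0549). In K9M testes Lct overlapped with WT, with 3.35 and 2.94 CPM in K9M, against 3.12 and 2.53 CPM in WT (0.16 ± 0.23). Anpep had 2.34 and 2.22 CPM in the K36M testes, against 1.38 and 1.45 CPM in the WT testes, which did not overlap and was not called (0.68 ± 0.27, adjusted p = 0.071). Alpi was -0.50 ± 0.23 (adjusted p = 0.113), Car4 0.74 ± 0.42 (0.179), Dpp4 0.10 ± 0.38 (0.843) and Vil1 0.01 ± 0.33 (0.983), of which Vil1 and Dpp4 change sign with the scaling. In K9M testes edgeR called 0 of 6, with 0 at an unadjusted p under 0.05 and 0 by DESeq2 and limma-voom, where 0.0678% of all genes were called. The 12 germ cell genes summed to 23278 and 32233 CPM in the K36M testes, against 13842 and 14132 CPM in the WT testes, and their part in the Lct result was not tested.

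An interaction term over 12 libraries compared the K36M effect in intestine with that in testes. Anpep and Car4 passed, where 22.5% of all genes were called either way and 12.4% lower. All 9 members entered this fit, Sis, Treh and Enpep through their intestine counts alone, since they had not passed the filter in testes, and nothing is read from those 3. For Anpep the effect was -1.75 in intestine and 0.68 in testes, a difference of -2.48 ± 0.43 (adjusted p = 0.00345), and limma-voom did not call it (0.12). For Car4 the effect was -3.95 in intestine and 0.74 in testes, a difference of -4.73 ± 1.14 (adjusted p = 0.0169). The Car4 call was lost without either WT testes library (adjusted p = 0.0754 and 0.0674) or without the testes of K36M.1485 (0.0911). The Lct difference of -0.91 ± 0.35 was not called (adjusted p = 0.0853), nor that of Dpp4 at -1.41 ± 0.48 (0.0566), and both passed without the intestine of K36M.1485 (0.0282 and 0.0189). With the mouse as a block, the same 2 members were called (Anpep -2.47, adjusted p = 0.00699; Car4 -5.05, 0.00682), and the count over all genes was 2968 against 4552 without the block. For K9M edgeR called 0 of the 6 members that were tested in testes too, where 0.123% of all genes were called, and DESeq2 and limma-voom called 0 of them. At an unadjusted p under 0.05 there were 2 (Anpep and Car4), where 1763 of 20253 genes passed.

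**Figure D5:**
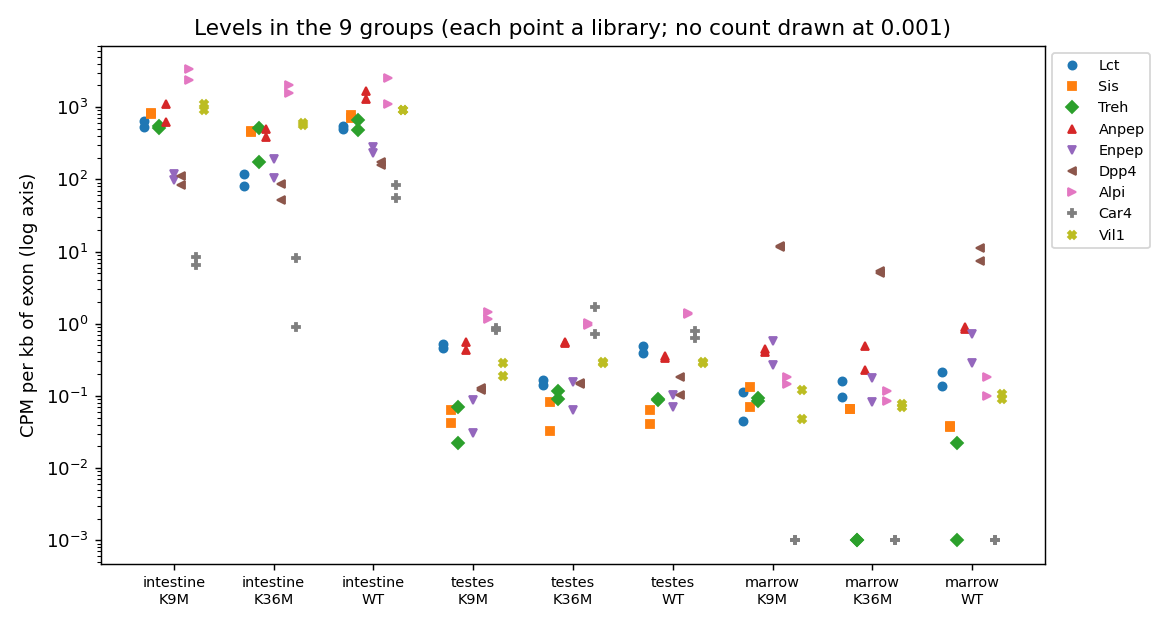
CPM per kilobase of exon, on a log axis, of the 9 genes in each library of the 9 groups. Apart from Dpp4 in marrow and, in the mutants alone, Car4 in testes, the levels in testes and marrow lie far below those in intestine. Car4 has no count in marrow.

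In bone marrow progenitors Dpp4, known there as the surface peptidase CD26, stood out from the other members. It had 73.1 and 75.6 CPM in the K9M mice, 31.7 and 34.4 CPM in the K36M mice, and 70.1 and 47.2 CPM in the WT mice. Dpp4 was lowest in K36M, without overlap with WT. No other member exceeded 3.77 CPM in a marrow library. Car4 had no count in any of the 6 libraries, which allows up to 3 counts in each and covers counting error only, and Treh had at most 4 counts. Alpi, Treh, Vil1 and Car4 did not pass the filter on low counts.

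Of the 5 genes tested in marrow, 3 fell in K36M, where 24.6% of all genes were called lower and 48% either way. Dpp4 changed by -0.83 ± 0.18 (adjusted p = 0.0105). Anpep, known in blood as the myeloid surface antigen CD13, had 2.03 and 0.943 CPM in the K36M mice, against 3.52 and 3.77 CPM in the WT mice (-1.28 ± 0.36, adjusted p = 0.0201). Enpep, known in mouse as a marker of early B lineage cells, had 0.843 and 0.388 CPM in the K36M mice, against 3.38 and 1.33 CPM in the WT mice (-1.91 ± 0.63, adjusted p = 0.0424). Both K36M libraries lay below both WT libraries for these 3, as for 38.7% of all genes, and their calls hung on the K36M mice. None of them passed without K36M.1312 (adjusted p = 0.0591 for Dpp4, 0.102 for Anpep and 0.207 for Enpep), and Anpep alone passed without K36M.1310 (0.0777 for Dpp4 and 0.072 for Enpep). Enpep was also lost without WT.1262 (0.206) and with limma-voom (0.0763). The 12 myeloid genes, of which 9 fell, summed to 3409 and 2682 CPM in the K36M mice, against 14760 and 11707 CPM in the WT mice. The 10 B and plasma cell genes, of which 1 fell, summed to 307 and 219 CPM in the K36M mice, against 345 and 335 CPM in the WT mice. Their part in these changes was not tested. In K9M marrow edgeR called 0 of 5, where 1.01% of all genes were called, and DESeq2 and limma-voom called 0. At an unadjusted p under 0.05 there were 2 (Sis and Anpep), where 2079 of 14604 genes passed. Dpp4 passed there without WT.1262 (0.65, adjusted p = 0.0102).

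Across the 18 libraries, the genes whose log2 CPM was most like the mean of the 9 were Tff3 and Pigr (Pearson r = 0.998 each), followed by Hnf4g, Btnl6 and Mep1b, among 6660 genes compared. The 18 points share their tissues, so 693 genes had an r over 0.95, and the likeness describes the split between gut and the rest. Alpi shares 2.40% of its 50-base stretches with Akp3 and a pseudogene, Treh 1.45% with a predicted gene, and Dpp4 overlaps an antisense gene over 3.67% of its exon bases, so small parts of these counts are uncertain.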

How the data were processed

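RNA-seq libraries were made from polyadenylated RNA with the SMARTer v3 kit, per the labels' protocols. The authors deposited unnormalized read counts by gene ID. The submitters' processing notes name STAR, HTSeq and mm9, and the versions and strand setting are not given in the sources used here. Antisense and overlapping genes can therefore not be told apart. Entries that name no gene stayed out of library sizes and tests, and reads in no feature made up 9.89% to 26.0% of a library. Symbols came by gene ID from a table that named 32897 of 37620 IDs, and exon lengths from GENCODE M21 on GRCm38, used for levels per kilobase only.

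Each tissue was fitted on its 6 libraries in R 4.3.3 with edgeR 4.0.16, using TMM factors, the filterByExpr filter and robust quasi-likelihood tests with 3 residual degrees of freedom. P-values were adjusted by Benjamini-Hochberg over all genes tested, with a threshold of 0.05. The interaction of genotype with tissue used the 12 libraries of intestine and testes. The mouse numbers in the labels pair these, and the mouse as a block was an alternative. The deviations of paired libraries from their group means correlated at 0.11 in K9M, -0.05 in K36M and 0.05 in WT over 13100 genes. Alternatives used DESeq2 1.42.0, voom in limma 3.58.1, other scaling, filters and thresholds, the 2 genotypes alone, and each library left out in turn, with the 1 library then remaining in a group taken to vary as the other groups do. The alternatives for the counts of gene lists were chosen after seeing the data. The tests were checked on simulated counts. No replicate pair came close to counting noise, the chi-square divided by its degrees of freedom being 2.39 to 66.1.

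The 9 members and the gene lists were chosen with earlier results of these data known. The text names all members and, of each enterocyte list, up to 3 called genes with the smallest adjusted p in K36M against WT intestine, and a gene named beyond these was chosen after its values were seen. Other called genes of these lists are counted and not named, and the lists are not described for K9M against K36M.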

Additional observations from a re-analysis of the deposited data

Results flagged for a closer look

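For 2 genes the K36M effect differed between intestine and testes in a test of the difference itself, where 22.5% of all genes were called either way. As given above, limma-voom did not call Anpep, and the Car4 call depended on single testes libraries. The difference of effects was -2.48 on the log2 scale for Anpep and -4.73 for Car4, both lower in intestine, by edgeR's interaction term over 12 libraries.

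In 4 cases both mutant libraries lay on one side of WT in marrow and on the other side in another tissue. These differences were not tested. Within 1 tissue, both libraries lay on a given side of WT for 30.6% to 39.9% of all genes in K36M and 18.9% to 23.7% in K9M. The share of all genes that changed side between tissues was not counted, so these 4 cases are not shown to be unusual. Sis in K36M was 0.822 in marrow, with 0.496 and 0.499 CPM in K36M against 0.281 and 0.276 CPM in WT from 6 to 10 reads, and -0.70 in intestine. Anpep in K36M was -1.28 in marrow and 0.68 in testes, and in K9M it was -1.04 in marrow and 0.55 in testes. Dpp4 in K9M was 0.343 in marrow and -0.75 in intestine. Between intestine and testes, Anpep, Car4 and Vil1 also changed side in K9M. Their values in intestine were -0.79, -3.22 and 0.16, and in testes 0.55, 0.24 and -0.29. These differences were tested, and edgeR's interaction term did not call them (adjusted p = 0.413, 0.431 and 0.761).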

How the results depend on the processing

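Of the 9 brush border genes, 5 were called in K36M against WT intestine, and 1 was called at an adjusted p of 0.01, 2 with the 2 genotypes alone, 8 without a filter, and 1 to 6 when 1 library was left out. In K9M against WT intestine 0 were called (30 of all genes), and 1 by DESeq2 (372), 2 with the 2 genotypes alone (202), 4 without a filter (1180 of 24939) and 0 to 1 when 1 library was left out. In K9M against K36M 3 were called, and 1 at an adjusted p of 0.01, with a 2-fold minimum, when scaled to pan-epithelial genes or with the 2 genotypes alone, 7 without a filter, and 1 to 4 when 1 library was left out. In K36M marrow 3 were called, 0 at an adjusted p of 0.01, and 0 to 3 when 1 library was left out, and in K9M marrow 0 to 1. In K36M testes 1 was called, and 0 to 2 when 1 library was left out. For the K36M interaction 2 were called, 1 at an adjusted p of 0.01 or with limma-voom, and 1 to 4 when 1 library was left out, and for K9M 0 to 1. The replicate block left the members called at 2 in K36M and 0 in K9M and changed no other call of theirs. With it, 6 genes were called in all in K9M, against 25 without it. The interaction counts are over all 9 members, including Sis, Treh and Enpep, which did not pass the filter in testes. Single values of these genes in the interaction are not given. Without a filter, calls over all genes were 4834 of 24939 in K36M against WT intestine and 5010 of 24939 in K9M against K36M. With the 2 genotypes alone, they were 1890 of 13841 and 2886 of 13639 in the same order. Values that changed sign were not called on either side of 0 except where given. Alpi in K36M against WT intestine was 0.0042 with DESeq2 size factors and DESeq2, 0.043 with library size alone, 0.072 with limma-voom, 0.23 when scaled to pan-epithelial genes, and -0.53 to 0.69 when 1 library was left out. In K36M testes Vil1 was -0.0097 with DESeq2 size factors, -0.0095 with DESeq2, -0.14 with library size alone and -0.032 to 0.018 when 1 library was left out, and Dpp4 was -0.049 with library size alone and -0.27 to 0.51 when 1 library was left out. Lct in the K9M interaction was -0.069 with library size alone, -0.0015 with limma-voom, -0.052 without a filter and -0.21 to 0.14 when 1 library was left out. When 1 library was left out, the ranges were -0.31 to 0.13 for Treh in K9M intestine, -0.83 to 0.033 for Enpep and -0.11 to 3.05 for Car4 in K9M against K36M, -0.042 to 1.19 for Car4 in K36M testes, -0.52 to 0.27 for Dpp4 and -0.26 to 0.072 for Alpi in K9M testes, -0.89 to 0.57 for Enpep in K9M marrow, -0.091 to 0.98 for Alpi in the K36M interaction, and -0.29 to 0.41 for Sis and -1.31 to 0.16 for Enpep in the K9M interaction. Of these, the calls were those of Car4 without K36M.1485 (adjusted p = 0.00753) and Enpep without K36M.1553 (-0.83, adjusted p = 0.0441) in K9M against K36M, and Car4 in testes without K36M.1553 (1.19, adjusted p = 0.00408). Scaling to pan-epithelial genes moved the median of all genes to 0.20 in K36M against WT, with 2242 genes higher and 947 lower in place of 1662 and 1661, and to -0.26 in K9M against K36M, with 1114 higher and 2377 lower in place of 1834 and 1736. Library size alone gave 1402 higher and 2052 lower for K9M against K36M, with a median of -0.16, and 2429 higher and 1724 lower in place of 2046 and 2506 for the K36M interaction. The cause was not tested in any of these cases. With 2 mice per group and low counts outside the gut, small changes of the members there were not detectable.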

Other observations

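Some brush border genes outside the set were low in both mutants, as Car4 was. The alkaline sphingomyelinase Enpp7 had 11.7 and 4.51 CPM in the K9M mice, 30.5 and 7.65 CPM in the K36M mice, and 274 and 85.7 CPM in the WT mice. The amino acid transporter Slc36a1 had 89.9 and 59.7 CPM in the K9M mice, 87.1 and 40.9 CPM in the K36M mice, and 332 and 299.6 CPM in the WT mice. The peptidase Ace had 1261 and 721 CPM in the K9M mice, 1196 and 534 CPM in the K36M mice, and 2765 and 2305 CPM in the WT mice. All 3 fell in K36M by edgeR (adjusted p = 0.0385, 0.0105 and 0.0478), and none passed in K9M (0.174, 0.142 and 0.371). They were singled out after their values were seen. Both comparisons share the same WT libraries, so high values in WT would make both mutants look low. The share of all genes low in both mutants was not counted, so these genes are not shown to be unusual.

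Within the K36M pair, K36M.1485 was higher than K36M.1553 in 7 of the 9 brush border genes, with a median ratio of 1.44, and in 15 of 16 other hydrolases, with a median ratio of 2.49. In pan-epithelial genes it was higher in 5 of 14, with a median ratio of 0.92. K9M.1516 was higher than K9M.1519 in 8 of the 9 (median ratio 1.20) and in 12 of 16 other hydrolases (1.26). WT.1476 was higher than WT.1477 in 6 of the 9 (1.09) and in 7 of 16 other hydrolases (0.94). The share of all genes higher in 1 mouse of a pair was not counted, so the K36M split is not shown to be unusual.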
